A study of Mus musculus with 10 samples.

Results

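The genes described here are 33 mouse genes of glucose uptake, glycolysis and lactate handling: 2 glucose transporters, 3 hexokinases, the enzymes of each further step down to pyruvate, the enzymes that set the activator of phosphofructokinase, both lactate dehydrogenases, 4 pyruvate dehydrogenase kinases and 2 lactate transporters. They come from a fixed list of symbols, which was chosen with earlier results of these data known. All 33 were found, each by 1 Ensembl identifier, among the 55359 genes of the deposited table. The study asked what loss of the RNA helicase DHX9 does to blood-forming cells. RNA was measured in bone marrow cells depleted of lineage-marked cells with a magnetic kit (Lin- cells), in 5 libraries from Dhx9f/f mice (WT) and 5 from Dhx9f/f;MX1 mice (cKO). Both groups carry the floxed Dhx9 alleles, and the cKO mice also carry Cre recombinase under the Mx1 promoter, which interferon switches on. Injected poly(I:C), a synthetic double-stranded RNA, brings on that interferon, and the Cre then acts in many tissues besides blood. The study's methods describe the injections for MX1-Cre mice and time the analysis of mice from the first of them, but do not say outright that the sequenced WT mice were injected. If they were not, an effect of the injection cannot be told apart from that of the genotype. The labels number the libraries within a group but do not say that each came from its own mouse, so p-values measure the spread between these libraries.

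Glycolysis splits glucose into pyruvate in the cytosol, and cells that rely on it reduce the pyruvate to lactate and export it, while others pass it to the pyruvate dehydrogenase complex of mitochondria. Most steps can be run by any of several isoenzymes that are encoded by separate genes, differ in regulation and are used by different blood lineages: red cells, for instance, have a pyruvate kinase from Pklr and most white cells the one from Pkm. Blood stem cells are known for a high glycolytic rate, held up by pyruvate dehydrogenase kinases, and maturing red cells end up with glycolysis as their source of ATP.

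The whole series has features that bear on every value below. The targeted gene went against the labels: Dhx9 measured 65.43 to 72.42 FPKM in WT libraries and 130.82 to 156.49 FPKM in those labelled cKO, so each direction given here rests on the labels. Xist was above 1 FPKM in 3 of the 5 WT libraries (WT 3, 4 and 5) and in no cKO library, and Ddx3y, from the Y chromosome, was present in the other WT libraries and in all cKO libraries, so sex is not balanced over the groups. The pan-blood gene Ptprc and the progenitor genes Kit and Cd34 were detected in all 10 libraries and were lower in the cKO ones, and the lineage markers moved widely. The summed level of 25 erythroid markers was 2007 to 3582 FPKM in WT and 5509 to 9025 FPKM in cKO libraries. That of 22 monocyte and dendritic cell markers was 1295 to 2151 FPKM in WT and 87.9 to 462 FPKM in cKO libraries. That of 20 neutrophil markers was 2788 to 3797 FPKM in WT and 151 to 2696 FPKM in cKO libraries. The neutrophil markers did not fall alike in all cKO libraries, and 11 of the 20 did not pass. Their mean log2 level was 3.49 to 3.94 in WT libraries. It was higher in cKO 1 (4.60), within that range in cKO 3 (3.67) and below it in cKO 2, 4 and 5 (1.10, 0.33 and 2.89). Of the defining erythroid markers Icam4 was at 0 in every library, and no monocyte, dendritic cell or neutrophil marker was. In bulk RNA, fewer cells of a type and less RNA per cell cannot be told apart. Depth, read from the values themselves, was 13840899 to 18711118 fragments per library.

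The summed level of the pathway's genes lay in the same range in both groups, while the genes that make up its steps differed between them. Values are FPKM, fragments scaled to gene length and library size, so levels of different genes can be compared per unit length. This does not hold for genes whose sequence is repeated in other genes, such as Gapdh below. The 33 genes together measured 1135 ± 43.1 FPKM in WT and 1142 ± 73.4 FPKM in cKO libraries (SD, n = 5 each), and the groups overlapped. The sum covers only fragments assigned to these genes. Gapdh enters it at a mean of 3.31 FPKM in WT and 3.19 FPKM in cKO libraries, a level that is uncertain. At a mean of at least 0.1 FPKM, 31 of the 33 were tested with limma on log2(FPKM + 0.1), with Benjamini-Hochberg adjustment over all 18742 genes that met the same minimum; Eno2 and Pdk4 fell below it. To be called, a gene needed an adjusted p under 0.05 together with a change of at least 2-fold. Of the 31, 7 (22.6%) were called lower in cKO libraries, where 16.8% of all tested genes were: the glucose transporter Slc2a1, the hexokinases Hk2 and Hk3, the regulators Pfkfb3 and Tigar, the pyruvate kinase gene Pkm and the lactate dehydrogenase gene Ldhb. None was called higher, against 4.60% of all tested genes.

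Without the limit on fold, 20 of the 31 passed (64.5%, against 45.0% of all tested genes), 8 as higher (25.8%, against 16.7%) and 12 as lower (38.7%, against 28.3%). The 8 higher genes were Hk1, Pfkm, Bpgm, Eno1, Ldha, Pdk1, Pdk3 and Slc16a1. The 12 lower genes were the 7 called and Slc2a3, Gpi1, Pfkfb4, Tpi1 and Pgam1. The 10 libraries did not overlap between groups for 4 higher genes (Hk1, Pfkm, Ldha, Pdk3; 10.6% of all tested genes did so in that direction) and for 9 lower genes (the 7 called, Pfkfb4 and Pgam1; 21.6%). The median log2 fold change was -0.18 over the 31 genes and -0.11 over all tested genes, of which 862 were called higher and 3153 lower. With quantile normalization those counts were 1581 and 2245 and the median of all genes moved to 0.10, while 6 of the 31 were called lower. Because 0.1 FPKM was added before taking logs, the fold changes below are too small for genes of low level, and adjusted p-values are limma's over all genes.

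**Figure D1:**
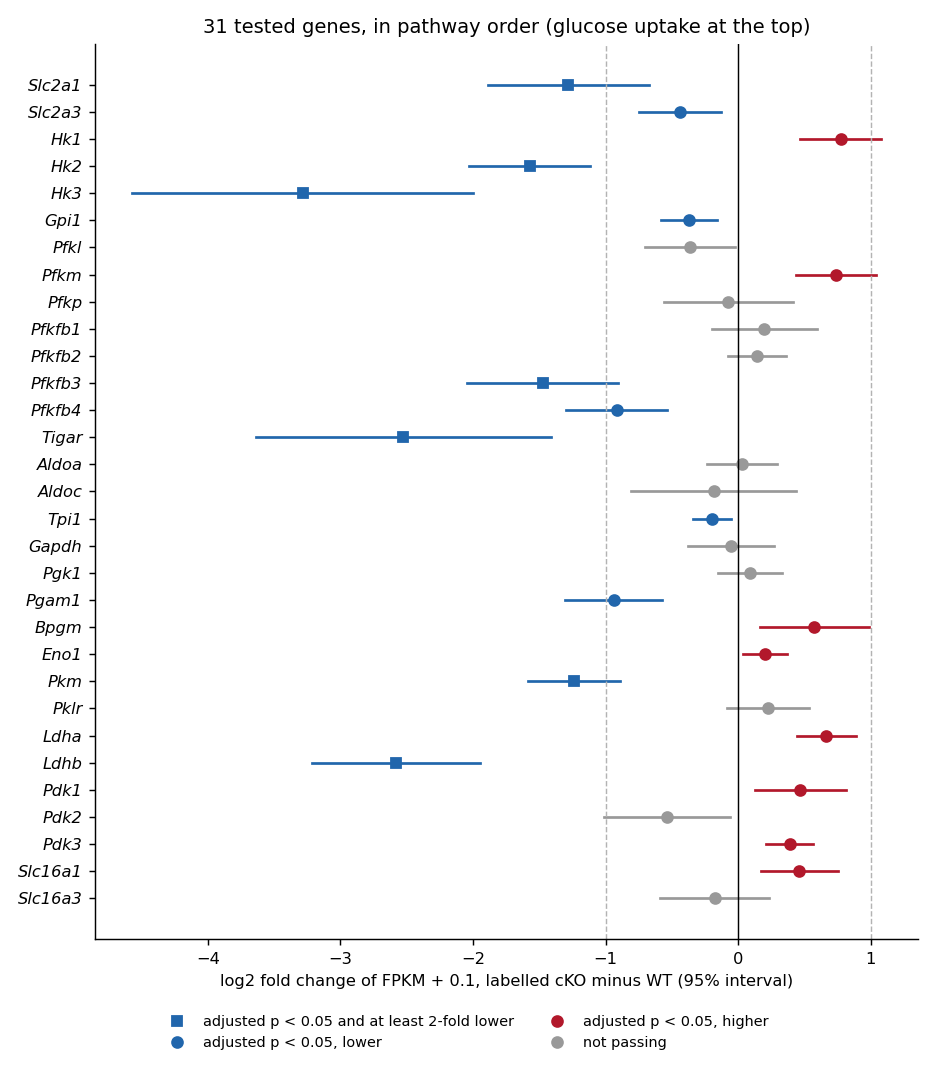
Log2 fold change of FPKM + 0.1 (cKO minus WT, x axis) of the 31 tested genes from glucose uptake at the top to lactate export at the bottom, with 95% intervals from 5 libraries a group. Squares mark the 7 genes called lower, from Slc2a1 at -1.28 to Hk3 at -3.28, and the largest positive value is that of Hk1 at 0.77.

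The promoters are shown for 4 genes whose isoenzymes moved apart: Ldha, higher in cKO libraries, beside Ldhb, Hk2 and Hk3, which were lower. Hypoxia-inducible factors bind the core ACGTG at many glycolysis genes, and MYC-family and MLX-family proteins bind the E-box CACGTG, which contains that core. The 250 bases before each annotated start were searched on both strands in RefSeq's promoter table (build GRCm38.p6, while the expression values use GRCm39), where 30 of the 33 genes have an entry. Of the 2 Ldha entries the upstream one is printed, and the other (chr7:46846832-46847081) holds no ACGTG. Hk1, the hexokinase gene that was higher, is not printed, and none of its entries holds ACGTG. The capitals mark each ACGTG and its reverse complement CACGT, which overlap in the E-box CACGTG.

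Ldha upstream promoter, chr7:46845554-46845803, plus strand: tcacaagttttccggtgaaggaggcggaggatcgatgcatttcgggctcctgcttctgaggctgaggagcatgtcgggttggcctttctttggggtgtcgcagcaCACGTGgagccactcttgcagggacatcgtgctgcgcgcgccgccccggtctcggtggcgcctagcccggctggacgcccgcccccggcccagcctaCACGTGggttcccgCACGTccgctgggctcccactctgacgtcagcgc
Ldhb promoter, chr6:142507958-142508207, minus strand: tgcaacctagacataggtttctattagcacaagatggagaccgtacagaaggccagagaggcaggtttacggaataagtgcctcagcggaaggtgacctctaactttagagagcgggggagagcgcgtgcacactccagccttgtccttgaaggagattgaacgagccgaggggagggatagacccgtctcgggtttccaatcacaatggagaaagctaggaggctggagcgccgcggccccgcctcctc
Hk2 promoter, chr6:82774455-82774704, minus strand: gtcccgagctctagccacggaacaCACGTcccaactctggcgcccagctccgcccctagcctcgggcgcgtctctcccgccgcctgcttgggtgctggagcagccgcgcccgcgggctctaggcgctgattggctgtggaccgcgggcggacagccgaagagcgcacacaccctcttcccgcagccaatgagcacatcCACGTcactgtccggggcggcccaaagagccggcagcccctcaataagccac
Hk3 promoter, chr13:55021386-55021635, minus strand: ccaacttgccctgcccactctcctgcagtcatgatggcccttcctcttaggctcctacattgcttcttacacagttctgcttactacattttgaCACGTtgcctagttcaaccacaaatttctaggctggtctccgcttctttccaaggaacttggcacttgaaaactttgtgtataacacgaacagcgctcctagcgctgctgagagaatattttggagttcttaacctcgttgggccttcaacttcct

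The core ACGTG was found at 15 of the 30 genes (50%) and at 18.5% of all 27018 genes with an entry. A gene with several entries has more chances of a match, and the 30 genes have 50 entries. Counted by entry, the core was at 38.0% of those, against 16.6% of all 32841 entries. It was present at 4 of the 8 genes that passed as higher and at 6 of the 11 that passed as lower and have an entry. The E-box CACGTG was found at 6 of the 30 genes (Ldha, Pdk2, Pfkfb2, Pfkfb3, Pfkm and Slc16a1) and at 6.86% of all genes. AGATAA, which GATA factors of the red cell lineage bind, was found at 5 (Pfkfb1, Pfkfb2, Pfkm, Pklr and Tigar) and at 11.4% of all genes, and GAGGAAGT, a form bound by the myeloid factor PU.1, at none and at 2.79% of all genes. By entry CACGTG was at 12.0% and AGATAA at 16.0%, against 6.02% and 9.99% of all entries. A match is a stretch of letters and not a measured binding site.

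At glucose uptake both transporters were lower in cKO libraries. Slc2a1 (chr4:118965908-118996365, GRCm39, as for all gene positions here) encodes GLUT1, a transporter of many dividing cells. It measured 2.64, 3.47, 2.73, 3.64 and 4.13 FPKM in WT 1 to 5 and 1.61, 0.66, 1.88, 0.97 and 1.77 FPKM in cKO 1 to 5. Every cKO library lay below every WT library, and the fall was 2.43-fold (log2 fold change -1.28, SE 0.27, adjusted p = 0.0032). The fall of Slc2a1 was short of 2-fold with a pseudocount of 1 (log2 fold change -0.88) and with quantile normalization (-0.79), and in the 7 libraries with low Xist, 2 of them WT, it did not pass (adjusted p = 0.080).

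Slc2a3 (chr6:122704768-122778599) encodes GLUT3, a transporter with high affinity for glucose, and was the more abundant in all 10 libraries. Its levels were 12.36, 21.57, 20.27, 18.93 and 21.55 FPKM in WT 1 to 5 and 12.81, 13.98, 13.42, 14.88 and 13.39 FPKM in cKO 1 to 5. The cKO libraries lay close together and below 4 of the WT libraries, with WT 1 under all of them. The fall was 1.35-fold (log2 fold change -0.44, adjusted p = 0.026), and without WT 2, 3, 4 or 5 it no longer passed (adjusted p 0.053 to 0.066). Slc2a1 made up 15.1% ± 2.25 of the summed FPKM of both transporters in WT and 9.15% ± 3.57 in cKO libraries (SD, n = 5 each; exact permutation test, adjusted p = 0.026 over 20 shares), which missed the threshold without WT 1, 2, 4 or 5 (adjusted p 0.053 to 0.079).

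The hexokinase step, which traps glucose in the cell as a phosphate ester, changed hands from 2 genes to 1. Hk1 (chr10:62104621-62215687), the hexokinase of red cells and of most tissues, measured 39.09, 55.60, 68.70, 54.87 and 51.37 FPKM in WT 1 to 5 and 72.55, 94.57, 95.32, 97.77 and 96.21 FPKM in cKO 1 to 5. All cKO libraries were above all WT libraries, with cKO 1 the lowest of them and WT 3 the highest of the WT libraries (1.71-fold higher, log2 fold change 0.77, SE 0.14, adjusted p = 0.0011). Hk3 (chr13:55153798-55169276), a hexokinase of granulocytes and macrophages, measured 61.94, 46.05, 40.60, 48.42 and 57.87 FPKM in WT 1 to 5 and 7.08, 2.40, 9.27, 1.22 and 16.77 FPKM in cKO 1 to 5. It had the largest fall of the 31 genes, 9.74-fold (log2 fold change -3.28, SE 0.58, adjusted p = 0.0011), and its cKO libraries ran from 1.22 FPKM in cKO 4 to 16.77 FPKM in cKO 5.

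Hk2 (chr6:82699740-82751469), the inducible hexokinase whose promoter is printed above with 2 ACGTG cores, measured 15.09, 11.34, 10.50, 13.11 and 14.32 FPKM in WT 1 to 5 and 2.81, 4.20, 5.54, 3.35 and 6.08 FPKM in cKO 1 to 5. The groups did not overlap and the fall was 2.98-fold (log2 fold change -1.57, SE 0.21, adjusted p = 0.00021). In WT libraries Hk1 and Hk3 shared the step almost evenly, at 45.8% ± 8.83 and 43.3% ± 7.27 of its summed FPKM, with Hk2 at 10.9% ± 1.60. In cKO libraries Hk1 made up 88.9% ± 5.85, Hk3 6.93% ± 5.24 and Hk2 4.19% ± 0.87 (n = 5 each). None of the 3 shares overlapped between the groups (exact permutation test, p = 0.0079, the smallest that 5 against 5 libraries can give, and adjusted p = 0.016 for each). The summed level of the step was 118 ± 4.03 FPKM in WT and 103 ± 13.6 FPKM in cKO libraries, with overlap.

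**Figure D2:**
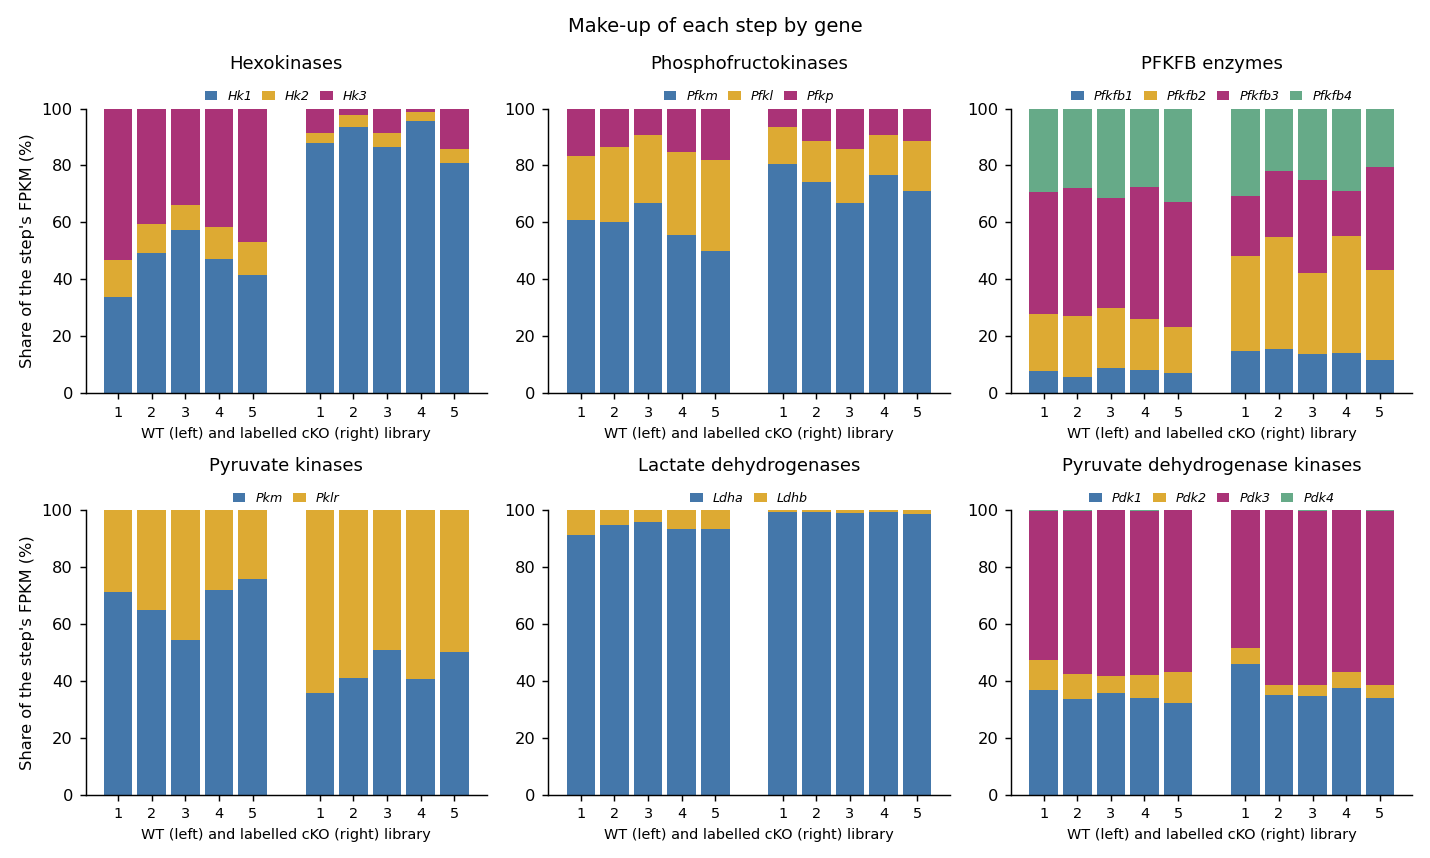
Each bar is 1 library and gives the percent of a step's summed FPKM held by each gene, for 6 steps with several genes, with WT 1 to 5 on the left and cKO 1 to 5 on the right of each panel. Hk1 holds 33.7% to 57.3% of the hexokinase sum in WT and 80.8% to 95.5% in cKO libraries, and Pkm holds 54.4% to 75.7% of the pyruvate kinase sum in WT and 35.7% to 51.0% in cKO libraries.

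Phosphofructokinase, the main control point of the pathway, moved toward its muscle-type subunit. Pfkm (chr15:97990451-98031417), a subunit also used by red cells, measured 30.93, 32.99, 42.57, 28.21 and 23.97 FPKM in WT 1 to 5 and 50.41, 52.62, 44.72, 53.86 and 60.01 FPKM in cKO 1 to 5. The nearest libraries of the groups were WT 3 and cKO 3, and the rise was 1.67-fold (log2 fold change 0.74, SE 0.14, adjusted p = 0.0014). The liver-type subunit Pfkl measured 14.2 ± 1.62 FPKM in WT and 11.2 ± 2.61 FPKM in cKO libraries (log2 fold change -0.36, adjusted p = 0.074), and passed without WT 1 or cKO 5 (adjusted p 0.042 and 0.017). The platelet-type subunit Pfkp measured 7.66 ± 1.10 and 7.55 ± 2.31 FPKM (adjusted p = 0.81), with a difference between a fall of 0.56 and a rise of 0.41 on the log2 scale by its 95% interval.

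The share of Pfkl in the 3 subunits fell from 26.7% ± 3.83 in WT to 15.6% ± 2.53 in cKO libraries without overlap (exact permutation test, adjusted p = 0.016), and that of Pfkm rose from 58.7% ± 6.32 to 73.8% ± 5.23 (adjusted p = 0.026). The share of Pfkp was 14.6% ± 3.43 and 10.5% ± 2.87 (adjusted p = 0.12), and passed without WT 3 (adjusted p = 0.037). The step's summed level was 53.6 ± 6.15 FPKM in WT and 71.1 ± 8.13 FPKM in cKO libraries, and the groups overlapped.

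The enzymes that make and remove the strongest activator of phosphofructokinase were lower in sum in the cKO libraries. Pfkfb3 (chr2:11476244-11558888), the isoenzyme that favours making the activator, measured 7.76, 7.25, 5.89, 8.25 and 8.58 FPKM in WT 1 to 5 and 2.62, 2.15, 3.89, 1.40 and 4.03 FPKM in cKO 1 to 5, a fall of 2.78-fold without overlap (log2 fold change -1.47, SE 0.26, adjusted p = 0.0010). Pfkfb4, a form with both activities, fell from 5.20 ± 0.74 to 2.75 ± 0.70 FPKM (log2 fold change -0.92, adjusted p = 0.0015), and its change reached 2-fold without cKO 1 (log2 fold change -1.04). Pfkfb1 and Pfkfb2, the forms first known from liver and heart, did not pass (1.29 ± 0.21 and 1.49 ± 0.24 FPKM, adjusted p = 0.40, for Pfkfb1; 3.33 ± 0.18 and 3.69 ± 0.31 FPKM, adjusted p = 0.28, for Pfkfb2).

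Tigar (chr6:127062079-127086545), a phosphatase that removes the same activator and is known as a p53 target, measured 3.04, 2.77, 2.88, 3.61 and 3.18 FPKM in WT 1 to 5 and 0.65, 0.16, 0.89, 0.09 and 1.31 FPKM in cKO 1 to 5. The WT libraries were close together and every cKO library was lower, with cKO 2 and 4 far below the others, and the fall was 5.76-fold (log2 fold change -2.53, SE 0.50, adjusted p = 0.0021). With a pseudocount of 1 the log2 fold change of Tigar was -1.39, and in the 7 libraries with low Xist, 2 of them WT, it was -2.44 and did not pass (adjusted p = 0.062). Of the summed FPKM of the 4 Pfkfb genes, Pfkfb3 held 43.3% ± 2.96 in WT and 25.7% ± 8.55 in cKO libraries, while Pfkfb2 went from 19.3% ± 2.06 to 34.8% ± 5.41 and Pfkfb1 from 7.46% ± 1.21 to 13.9% ± 1.38 (exact permutation test, adjusted p = 0.016 each, no overlap). Pfkfb4 held 29.9% ± 2.26 and 25.5% ± 4.38 (adjusted p = 0.13, and 0.049 without cKO 1). The summed level of the 4 genes did not overlap either, at 17.4 ± 1.70 FPKM in WT and 10.8 ± 1.56 FPKM in cKO libraries.

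**Figure D3:**
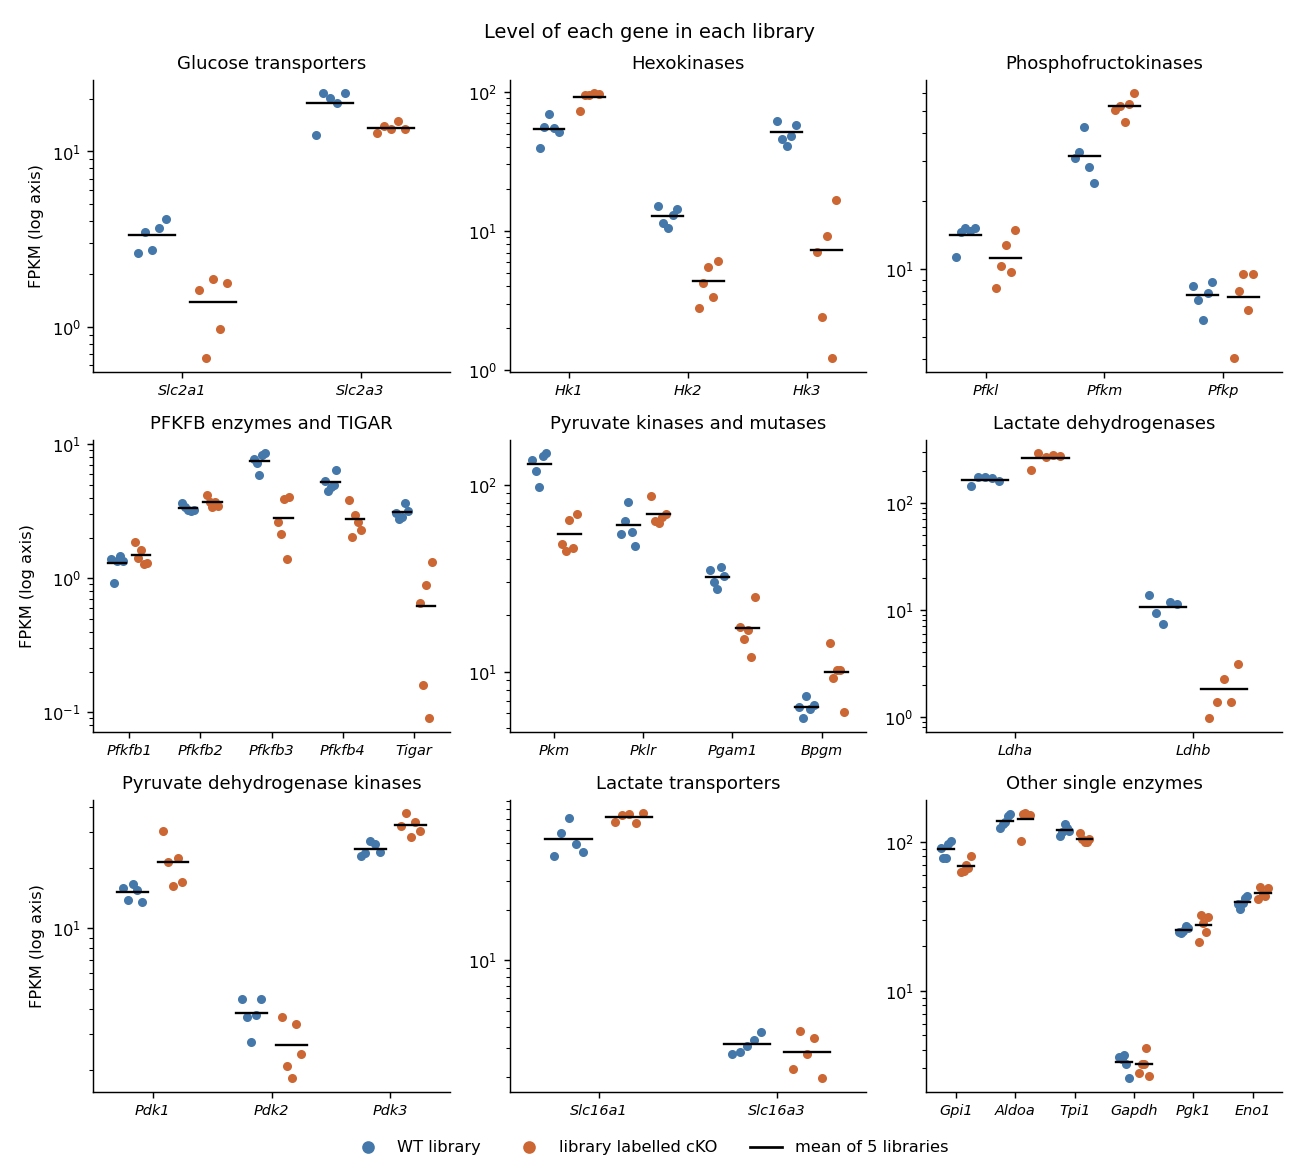
FPKM (log axis) of 30 of the genes, 1 point a library, grouped by step, with WT libraries in blue, cKO libraries in orange and a bar at the mean of 5 libraries. Hk3, Tigar and Ldhb show the largest falls of the 31 tested genes, while Aldoa, Gapdh and Pgk1 overlap.

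The steps in the middle of the pathway, most of them run by 1 gene, moved little. Gpi1, which turns the first hexose phosphate into the second, measured 91.60, 78.51, 77.90, 97.51 and 101.64 FPKM in WT 1 to 5 and 63.39, 63.45, 70.60, 67.42 and 80.33 FPKM in cKO 1 to 5, with cKO 5 above the lowest WT libraries (log2 fold change -0.37, adjusted p = 0.0090). With Xist as a covariate Gpi1 did not pass (log2 fold change -0.30, adjusted p = 0.10), nor did Slc2a3, Tpi1, Bpgm and Pdk1 (adjusted p 0.30, 0.32, 0.070 and 0.12). No cKO library had high Xist, so the cKO estimates of this fit rest on WT 1 and WT 2. Tpi1, which interconverts the 2 triose phosphates, measured 109.29, 117.65, 131.57, 125.04 and 118.36 FPKM in WT 1 to 5 and 115.54, 104.66, 99.70, 100.55 and 104.89 FPKM in cKO 1 to 5. Its fall was 1.14-fold (log2 fold change -0.20, adjusted p = 0.029) and no longer passed without WT 3, WT 4 or any cKO library but cKO 1 (adjusted p 0.051 to 0.072).

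Aldoa, the aldolase of muscle and red cells, held 99.8% of the summed aldolase FPKM in both groups and measured 125.30, 132.17, 136.54, 148.94 and 153.78 FPKM in WT 1 to 5 and 101.79, 154.39, 156.40, 152.49 and 152.50 FPKM in cKO 1 to 5 (log2 fold change 0.03, adjusted p = 0.87). Of the cKO libraries 2 lay above the WT range, 2 just under its top (WT 5) and cKO 1 below it. The second aldolase gene, Aldoc, measured 0.25 ± 0.05 and 0.22 ± 0.10 FPKM (adjusted p = 0.62). Pgk1, the first enzyme to return ATP, measured 24.99, 24.62, 25.11, 27.08 and 26.46 FPKM in WT 1 to 5 and 21.12, 32.51, 28.74, 24.74 and 31.10 FPKM in cKO 1 to 5 (log2 fold change 0.09, adjusted p = 0.53).

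Gapdh, the dehydrogenase between those steps and a common reference gene, was listed far lower than its neighbours, at 3.59, 3.47, 3.68, 3.22 and 2.57 FPKM in WT 1 to 5 and 2.78, 3.21, 3.20, 4.10 and 2.67 FPKM in cKO 1 to 5 (log2 fold change -0.05, adjusted p = 0.80). Of all windows of 100 bases in its annotated transcript, 78.0% occur exactly in other annotated genes, 91 of them in all. Those in the table summed to 20.6 to 29.1 FPKM in WT and 22.4 to 32.9 FPKM in cKO libraries. The stretch printed here, from positions 982 to 1081 of the transcript and within its coding sequence (241 to 1239), is the coding stretch of this length held by the most other genes, 43.

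Gapdh coding stretch: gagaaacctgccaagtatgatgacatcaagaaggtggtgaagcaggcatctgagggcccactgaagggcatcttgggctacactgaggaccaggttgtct

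The level of Gapdh is therefore uncertain, and how the authors' counting treated fragments that match several genes was not tested. The same share of windows was 85.2% for Aldoa (all in 1 predicted gene that overlaps it), 67.0% for Pgk1, 48.0% for Eno1, 39.2% for Pgam1, 37.1% for Pfkfb2 (in 1 overlapping predicted gene), 9.75% for Pkm and at most 7.41% for the other 26 genes. Of the genes called lower, only Pkm and Ldhb share any window, and the other genes holding those of Pkm summed to 9.04 to 11.1 FPKM in WT and 1.85 to 3.80 FPKM in cKO libraries.

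Below the triose phosphates the 2 mutases moved in opposite directions. Pgam1 (chr19:41900341-41907104), the mutase of the main pathway, measured 34.77, 30.27, 27.54, 36.19 and 32.51 FPKM in WT 1 to 5 and 17.24, 15.03, 16.76, 11.93 and 25.01 FPKM in cKO 1 to 5. The groups did not overlap, cKO 5 was the nearest to WT, and the fall was 1.92-fold (log2 fold change -0.94, SE 0.17, adjusted p = 0.0010) and reached 2-fold without cKO 5 (log2 fold change -1.08). Bpgm (chr6:34453142-34484029), which diverts the intermediate to the bisphosphoglycerate that lowers the oxygen affinity of haemoglobin in red cells, measured 6.44, 5.63, 7.41, 6.33 and 6.63 FPKM in WT 1 to 5 and 14.30, 9.24, 10.18, 10.25 and 6.09 FPKM in cKO 1 to 5.

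For Bpgm 4 cKO libraries lay above all WT libraries and cKO 5 lay within the WT range, and the rise was 1.49-fold (log2 fold change 0.57, adjusted p = 0.027). It did not pass without WT 1, 2 or 4 or cKO 3 or 4 (adjusted p 0.051 to 0.064). Eno1, the enolase, measured 38.13, 35.38, 39.19, 41.80 and 43.66 FPKM in WT 1 to 5 and 41.39, 49.50, 44.74, 43.35 and 48.88 FPKM in cKO 1 to 5. Its rise was 1.15-fold (log2 fold change 0.20, adjusted p = 0.047) and passed without WT 5 or cKO 1 but not without any of the other 8 libraries (adjusted p 0.056 to 0.12). The neuronal enolase Eno2 was at 0.00 to 0.13 FPKM and was not tested.

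Pyruvate kinase, the last step to pyruvate, went from mostly Pkm to slightly more Pklr. Pkm (chr9:59563364-59586663) encodes the form of white cells and dividing cells, and it measured 135.79, 118.16, 96.75, 143.02 and 147.33 FPKM in WT 1 to 5 and 48.24, 44.42, 64.97, 45.67 and 69.77 FPKM in cKO 1 to 5. The lowest WT library, WT 3, was above the highest cKO library, cKO 5, and the fall was 2.36-fold (log2 fold change -1.24, SE 0.16, adjusted p = 0.00018). Gene-level values do not separate the M1 and M2 splice forms of Pkm.

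Pklr (chr3:89043449-89054619), the gene of the liver and red cell form, measured 54.67, 64.09, 80.95, 55.76 and 47.17 FPKM in WT 1 to 5 and 86.99, 63.91, 62.46, 67.06 and 69.55 FPKM in cKO 1 to 5. The groups overlapped, with WT 3 and cKO 1 standing above the rest of their groups (log2 fold change 0.22, 95% interval -0.09 to 0.53, adjusted p = 0.22), and the rise passed without WT 3 (log2 fold change 0.33, adjusted p = 0.038). Pkm held 67.7% ± 8.36 of the summed FPKM of both genes in WT and 43.7% ± 6.63 in cKO libraries, without overlap (exact permutation test, adjusted p = 0.016). The summed level was 189 ± 8.67 FPKM in WT and 125 ± 13.6 FPKM in cKO libraries, again without overlap.

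Lactate dehydrogenase, which reduces pyruvate to lactate, was higher in sum, with more of its main subunit and less of its minor one. Ldha (chr7:46490899-46505061), the subunit suited to making lactate, measured 144.43, 174.42, 174.60, 172.33 and 159.02 FPKM in WT 1 to 5 and 203.65, 291.63, 266.66, 279.11 and 272.88 FPKM in cKO 1 to 5. By the values as listed it was the most abundant of the 33 genes in every library, all cKO libraries were above all WT libraries, and the rise was 1.58-fold (log2 fold change 0.66, SE 0.10, adjusted p = 0.00042). Ldhb (chr6:142435672-142454586), the subunit suited to using lactate, measured 13.65, 9.30, 7.42, 11.88 and 11.39 FPKM in WT 1 to 5 and 0.97, 1.37, 2.26, 1.37 and 3.12 FPKM in cKO 1 to 5.

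The fall of Ldhb was 5.98-fold (log2 fold change -2.58, SE 0.29, adjusted p = 0.00011), the smallest adjusted p of the 31 genes. Ldha held 93.8% ± 1.73 of the summed FPKM of both subunits in WT and 99.3% ± 0.30 in cKO libraries, with no overlap (exact permutation test, adjusted p = 0.016), and the sum itself went from 176 ± 11.3 to 265 ± 34.7 FPKM without overlap. Of the promoters printed above, the upstream one of Ldha has 2 E-boxes and 1 further ACGTG core, and that of Ldhb, like the second one of Ldha, has neither.

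The pyruvate dehydrogenase kinases, which hold pyruvate out of mitochondria by switching off the dehydrogenase complex, were higher in sum (43.6 ± 2.24 FPKM in WT and 56.5 ± 8.07 FPKM in cKO libraries, without overlap). Pdk3 (chrX:92789513-92876389) was the most abundant on average in both groups and measured 22.71, 23.62, 26.97, 26.32 and 23.78 FPKM in WT 1 to 5 and 32.08, 37.18, 28.49, 33.66 and 30.49 FPKM in cKO 1 to 5 (1.31-fold higher, log2 fold change 0.39, adjusted p = 0.0029, no overlap). Pdk1, the form induced by hypoxia, rose from 15.1 ± 1.31 to 21.4 ± 5.68 FPKM (log2 fold change 0.47, adjusted p = 0.029), with cKO 1 the highest at 30.36 FPKM. The rise of Pdk1 did not pass without WT 2, WT 5, cKO 2 or cKO 4 (adjusted p 0.059 to 0.069).

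Pdk2 measured 3.82 ± 0.72 FPKM in WT and 2.66 ± 0.81 FPKM in cKO libraries (log2 fold change -0.54, adjusted p = 0.063) and passed as lower without WT 3, cKO 1 or cKO 4 (adjusted p 0.021 to 0.044). Its share of the 4 kinases fell from 8.82% ± 1.94 to 4.66% ± 0.98 without overlap (exact permutation test, adjusted p = 0.016). The shares of Pdk1 (34.5% ± 1.79 and 37.5% ± 4.93) and Pdk3 (56.5% ± 2.27 and 57.8% ± 5.55) did not pass, and Pdk4, the starvation-induced form, was at 0.00 to 0.12 FPKM and was not tested. Pdk3 and Pgk1 lie on the X chromosome, as does Pfkfb1, and sex was not balanced over the groups; in the 7 libraries with low Xist, 2 of them WT, the log2 fold change of Pdk3 was 0.48 (adjusted p = 0.022).

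At lactate export Slc16a1 (chr3:104545811-104565780), which encodes MCT1, a carrier that works in both directions, measured 41.90, 57.96, 71.45, 49.32 and 44.42 FPKM in WT 1 to 5 and 66.87, 74.19, 75.51, 66.05 and 75.84 FPKM in cKO 1 to 5. WT 3 lay within the cKO range and the other WT libraries below it, and the rise was 1.38-fold (log2 fold change 0.46, SE 0.13, adjusted p = 0.015). Slc16a3, which encodes MCT4, the exporter of strongly glycolytic cells, measured 3.14 ± 0.39 and 2.84 ± 0.77 FPKM (log2 fold change -0.18, adjusted p = 0.47). Slc16a1 held 94.2% ± 1.42 of the summed level of both in WT and 96.2% ± 1.06 in cKO libraries (exact permutation test, adjusted p = 0.073).

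Of the 20 shares tested over 10 steps, 12 passed at an adjusted p under 0.05. Within a step a fall of 1 share raises the others, so the 12 are not separate results. Among them are Pfkfb1 and Pfkfb2, whose levels did not pass (limma, adjusted p = 0.40 and 0.28). Dividing a whole library by 1 factor leaves a share as it is, but quantile normalization does not. With it 10 shares passed, those of Slc2a1 (adjusted p = 0.22) and Pdk2 (0.058) being lost. The count was 11 to 13 when each library was left out in turn.

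The libraries of a group were ordered alike by many of these genes. In all 7 genes called lower, cKO 3 and 5 were both above cKO 1, 2 and 4, an order seen in 39.9% of all genes called lower and in 20.1% of all tested genes; this order was noticed after the values were seen. The same 2 libraries had the highest sums of monocyte and dendritic cell markers among the cKO libraries, 353 and 462 FPKM against 87.9 to 184 FPKM in the other cKO libraries. This order was not particular to that lineage. They also had the highest B-lymphoid marker sums of the cKO libraries, 39.4 and 61.3 FPKM against 2.75 to 14.6 FPKM. Their erythroid sums were the lowest, 6457 and 5509 FPKM against 7718 to 9025 FPKM. Of the monocyte and dendritic cell list 17 of 22 genes were called lower and none higher, against the 16.8% and 4.60% given above. Other lists fell too. Called lower were 15 of 16 megakaryocyte, 11 of 15 mast cell, basophil and eosinophil, and 11 of 16 stem and progenitor markers. Of tested B-lymphoid, T and NK, and stromal and endothelial markers, 8 of 11, 8 of 14 and 8 of 12 were. The mast cell and stromal lists each had 1 gene called higher. Of the 8 glycolysis genes that passed as higher, 7 were highest among WT libraries in WT 3, as were 52.0% of all genes that passed as higher. WT 3 also had the highest erythroid sum of the WT libraries, 3582 FPKM against 2007 to 2717 FPKM. That too was noticed after the values were seen, and the cKO libraries did not repeat it. The highest erythroid sum among them was in cKO 4 (9025 FPKM), where of the 8 genes only Hk1 was highest. In cKO 5, with the lowest sum (5509 FPKM), Pfkm and Slc16a1 were highest and Bpgm was lowest.

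Among the erythroid markers 13 of 24 tested genes were called higher and none lower. Among the neutrophil markers 9 of 20 were called lower and none higher, and cKO 1, with the highest neutrophil sum of the cKO libraries at 2696 FPKM, had 7.08 FPKM of Hk3 and 0.97 FPKM of Ldhb. The part that a shift of lineages had in the levels of the glycolysis genes was not tested.

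**Figure D4:**
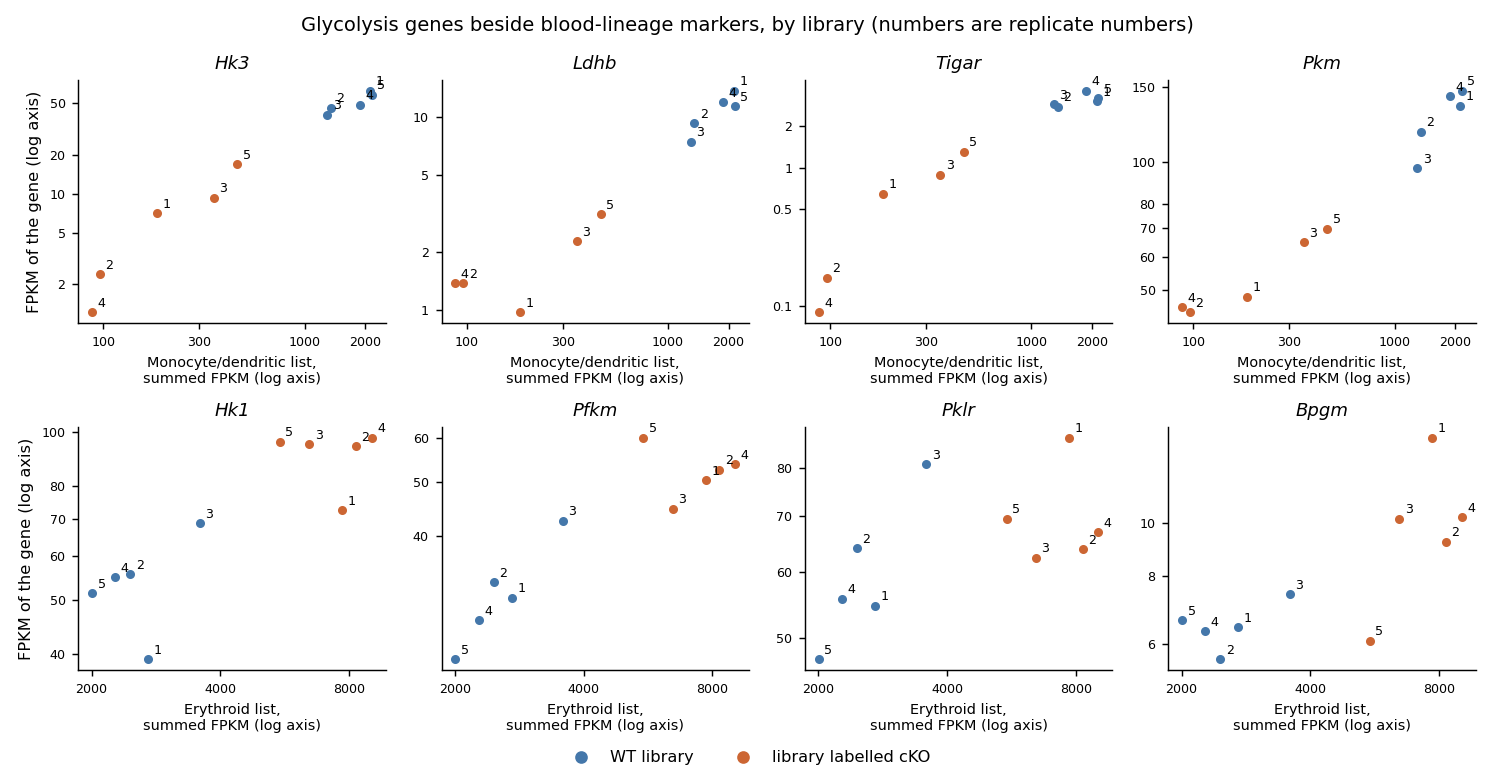
Each point is 1 library, numbered by replicate, with WT in blue and cKO in orange. The upper panels set FPKM of Hk3, Ldhb, Tigar and Pkm (log axis) against the summed FPKM of 22 monocyte and dendritic cell markers (log axis), and the lower panels set Hk1, Pfkm, Pklr and Bpgm against the sum of the erythroid markers; cKO 3 and 5 lie above cKO 1, 2 and 4 in all upper panels, and WT 3 is the WT library with the highest erythroid sum.

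The routes around glycolysis were followed in 7 further lists of genes, none of them overlapping the 33. Among 14 tested further enzymes of glycolysis and gluconeogenesis, 1 was called higher and 3 lower, counts near the 4.60% and 16.8% of all tested genes (2 and 5 at adjusted p alone; median log2 fold change -0.21). The one higher gene, Pcx, which makes oxaloacetate from pyruvate, went from 2.87 ± 0.54 to 25.2 ± 17.6 FPKM (log2 fold change 2.81, adjusted p = 0.00046). The 3 lower genes were Fbp1, the phosphatase that reverses the phosphofructokinase step (log2 fold change -1.65), the sperm dehydrogenase gene Gapdhs (-1.31) and the muscle mutase gene Pgam2 (-1.07).

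Among 16 tested further sugar and monocarboxylate transport genes, 7 were called lower and none higher, where 16.8% and 4.60% of all tested genes were (8 lower and 2 higher at adjusted p alone; median -0.52). Emb, one of the 2 chaperones of monocarboxylate carriers, fell from 62.7 ± 14.0 to 9.68 ± 7.82 FPKM (log2 fold change -3.19, adjusted p = 0.0017). The other chaperone, Bsg, named here after its values were seen, rose from 169 ± 19.3 to 234 ± 32.6 FPKM (log2 fold change 0.46, adjusted p = 0.0052). The next largest falls were those of Slc2a6 (log2 fold change -2.81), Slc16a7 (-2.51) and Slc16a13 (-2.01), each a minor transporter with a mean under 3 FPKM in both groups.

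Among 10 genes of pyruvate entry to mitochondria 5 passed as higher and none as lower at adjusted p alone (16.7% and 28.3% of all tested genes did), none was called at 2-fold and the median log2 fold change was 0.16. The 5 were the carrier subunit Mpc2 and the dehydrogenase subunits Pdha1, Pdhb, Pdhx and Dld, and were named after their values were seen; Pdha1 rose from 61.1 ± 1.20 to 77.8 ± 4.45 FPKM (log2 fold change 0.35, adjusted p = 0.00042). Among 11 pentose phosphate genes none was called, with 2 higher and 4 lower at adjusted p alone and a median of -0.10.

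Glycogen metabolism was the list with the lowest median, -0.77: of 15 tested genes 4 were called lower (16.8% of all tested genes were), and 11 passed as lower and none as higher at adjusted p alone (28.3% and 16.7%). The 4 were Ppp1r3b and Ppp1r3d, which bring phosphatase to glycogen (log2 fold change -1.88 and -1.32), the phosphorylase gene Pygl (-1.25) and the phosphorylase kinase subunit Phka1 (-1.16). Among 11 tested glucose-sensing genes 5 were called lower and none higher, with 3 higher and 6 lower at adjusted p alone (median -0.31; 28.3% of all tested genes passed as lower and 16.7% as higher). The subunits of the AMP-activated kinase went both ways. Prkag2 (-2.24) and Prkab2 (-1.27) had 2 of the largest falls of the list, while the more abundant Prkaa1, Prkab1 and Prkag1, named after their values were seen, rose (log2 fold change 0.54, 0.56 and 0.72). The arrestins Arrdc4 (-2.05) and Txnip (-1.21), which are induced by sugar phosphates and hold down glucose uptake, were also lower. Txnip fell from 99.9 ± 30.0 to 41.9 ± 7.36 FPKM.

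Among 29 tested genes of oxygen sensing and the hypoxia response outside glycolysis, 1 was called higher and 5 lower, near the 4.60% and 16.8% of all tested genes (2 and 10 at adjusted p alone; median -0.17). The higher gene was the secreted hormone gene Stc2 (log2 fold change 3.13, from 0.05 ± 0.02 to 1.63 ± 1.20 FPKM). The largest falls were in the carbonic anhydrase gene Car9 (-1.70), the adenylate kinase gene Ak4 (-1.37) and the stress gene Ndrg1 (-1.27), and the factor gene Hif1a itself, named outside the rule for naming, measured 11.6 ± 1.21 FPKM in WT and 9.91 ± 0.93 FPKM in cKO libraries (adjusted p = 0.073).

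**Figure D5:**
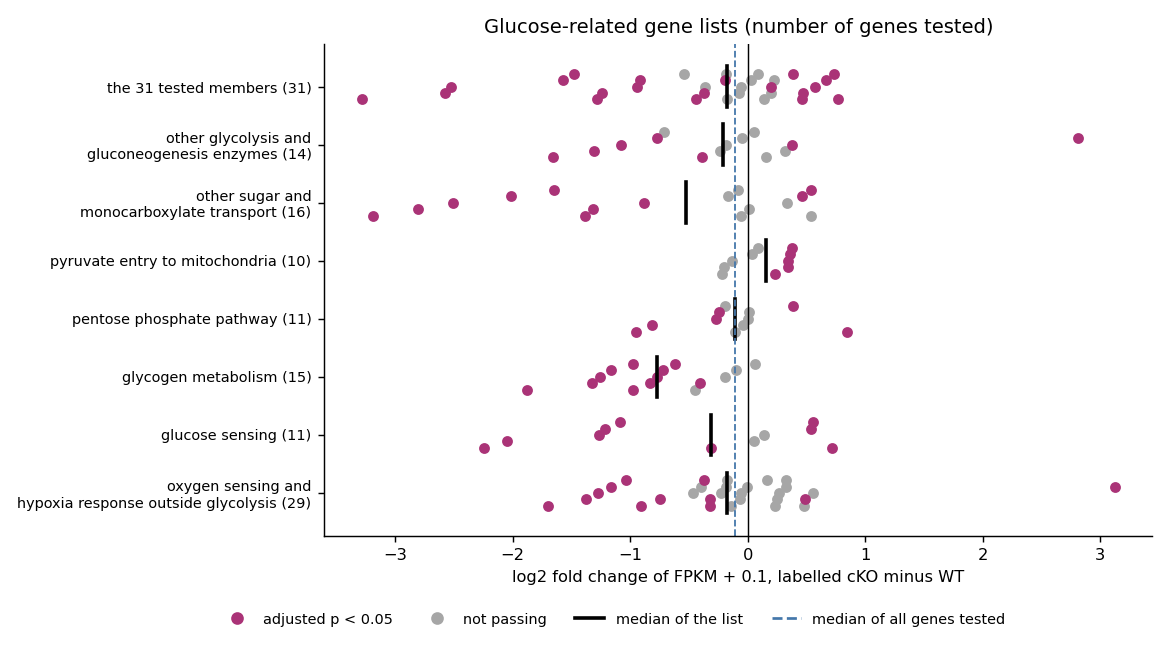
Log2 fold change of FPKM + 0.1 (cKO minus WT, x axis), 1 point a gene, for the 31 tested glycolysis genes and 7 related lists, with genes at an adjusted p under 0.05 in purple, a black bar at each list's median and a dashed line at the median of all tested genes (-0.11). The glycogen list has the lowest median (-0.77) and pyruvate entry the highest (0.16).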

How the data were processed

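Total RNA of Lin- bone marrow cells was sequenced in 5 WT and 5 cKO libraries, grouped by the genotype in the labels. The authors deposited 1 table of FPKM per gene and library, given to 2 decimals. Per the labels, reads were trimmed with cutadapt 1.9.1, aligned to GRCm39 with HISAT2 2.0.1 and counted with HTSeq 0.6.1; the annotation and gene lengths are not given in the sources used here, nor how fragments matching several genes were treated.

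FPKM are not counts, so no count model was run. The main test was limma 3.58.1 (lmFit, eBayes with a trend, two-sided) in R 4.3.3, run for every gene averaging 0.1 FPKM or more on log2(FPKM + 0.1), with no covariate. Shares within a step were compared by two-sided exact permutation tests (252 arrangements of the 10 libraries) (scipy 1.17.1, Python 3.11.15), with Benjamini-Hochberg adjustment over 20 shares. Lists of genes were counted and not tested. All 33 genes are named; values in every library are given for genes called and for the most abundant gene of each step, and of each pathway list at most the 4 called genes with the largest change are named. The members and lists were chosen with earlier results of these data known.

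In genes with 1 annotated transcript of 200 to 1000 bp, FPKM step by the value of a single fragment. The step gave each library's depth, with 96.0% to 96.6% of values up to 20 fragments whole within 0.2 (40% by chance). A gene of 1000 bp with 3 fragments is at 0.160 to 0.217 FPKM. No pair of libraries of a group agreed within sampling noise. Data were also simulated for this comparison over 18742 genes and judged by adjusted p under 0.05 alone, with no limit on fold. A log2 change of 0.5 passed in 13.5% of the 200 genes given it, one of 1 in 43.5% and one of 2 in 78.5%. None had the wrong sign. Only 200 genes were changed in each simulation, whereas 45.0% of all tested genes passed in the real data. The adjustment was therefore stricter in the simulation, and these rates do not give the power of the real comparison. Alternatives were other pseudocounts (0.01 and 1), filters, scalings (median-ratio, equal sum, quantile), a fit without trend, a block for the replicate number, a covariate for Xist above 1 FPKM, adjusted p alone and each library left out; chosen after seeing the data were the 7 libraries with low Xist.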

Additional observations from a re-analysis of the deposited data

Results flagged for a closer look

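In 7 cases 1 library of a group stood apart from the other 4 (Dixon's test at the 95% level for 5 values); 62 groups of 5 were examined, and chance alone flags about 3.1 of them. Of the 7 cases 4 were in cKO 1, the library with the lowest depth. In cKO 1, Hk1 measured 72.55 FPKM (94.57 to 97.77 in the other cKO libraries), Aldoa 101.79 FPKM (152.49 to 156.40), Ldha 203.65 FPKM (266.66 to 291.63) and Pklr 86.99 FPKM (62.46 to 69.55). In WT 1, Slc2a3 measured 12.36 FPKM (18.93 to 21.57 in the other WT libraries) and Pfkl 11.36 FPKM (14.60 to 15.26). In WT 2, Pfkfb1 measured 0.92 FPKM (1.34 to 1.46).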

How the results depend on the processing

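Hk2, Hk3, Ldhb, Pfkfb3 and Pkm were called lower under all 21 alternatives, Tigar under 20 and Slc2a1 under 18. Over all genes, 356 were called higher and 1486 lower with a pseudocount of 1, and 462 and 1827 among genes averaging 1 FPKM or more; 1581 were called higher with quantile normalization, and 3138 passed as higher and 5300 as lower by adjusted p alone, which also gave 8 and 12 of the 33 genes. In the 7 libraries with low Xist, an alternative chosen after seeing the data, 536 genes were called higher, 5 of the 33 passed as higher and 6 as lower; Slc2a1, Slc2a3, Gpi1, Pfkfb4, Tigar, Tpi1, Bpgm, Eno1 and Pdk1 no longer passed, with 2 WT libraries left. With Xist as a covariate in all 10 libraries, Slc2a3, Gpi1, Tpi1, Bpgm and Pdk1 did not pass. That fit is not a separate check: no cKO library had high Xist, so its cKO estimates rest on the same 2 WT libraries. The log2 fold changes were the same in both, as for Gpi1 at -0.30 and Bpgm at 0.67. The cause of these changes was not tested.

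With each library left out in turn, 762 to 948 genes were called higher and 2892 to 3268 lower; of the 33 genes, 7 to 8 were called lower, 5 to 8 passed as higher (5 without WT 2 and without cKO 4), 10 to 13 passed as lower, and 11 to 13 shares passed. The sign changed only for values that passed nowhere. The log2 fold change of Pfkp was 0.032 with median-ratio scaling, 0.13 with quantile normalization and -0.17 to 0.13 with 1 library left out (positive without cKO 1). That of Gapdh was 0.049, 0.36 and -0.15 to 0.0042 in the same order (positive without cKO 5). That of Aldoa was -0.012 with an equal sum per library, -0.043 with quantile normalization and -0.0088 to 0.15 with 1 library left out (negative without WT 1, cKO 2 or cKO 3). With quantile normalization that of Aldoc was 0.29 and that of Slc16a3 0.26, the share of Aldoa differed by -0.041 and that of Pdk3 by -0.87 percentage points; that of Pdk4 differed by -0.073 to 0.0094 points with 1 library left out (positive without WT 2). The median of all genes was -0.0060 with median-ratio scaling and 0.10 with quantile normalization, against -0.11.

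Libraries with the same replicate number did not all deviate together from their group means (correlations 0.12, 0.026, -0.010, -0.0030 and 0.093 for numbers 1 to 5). With the replicate number as a block, 857 genes were called higher and 3107 lower, 7 of the 33 genes were called lower, and 7 passed as higher and 13 as lower; Tpi1 and Eno1 no longer passed and Pfkl and Pdk2 did (adjusted p 0.022 and 0.028). WT 1, 2 and 5 and cKO 1 and 5 correlated best with their own number.

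Depth limits Tigar in cKO 2 and 4, Aldoc, Eno2 and Pdk4, which rest on few fragments.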
